A study of Arabidopsis thaliana with 2 samples.

Results

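The genes described here encode 5 subunits of the chloroplast ATP synthase and lie in 2 operons of the plastid genome. The genes atpA, atpF and atpH belong to one operon, and atpB and atpE to the other. They were chosen by name as plastid ATP synthase genes, after their signals on these arrays, the same signals described below, had been seen. Their differences are therefore descriptions and support nothing beyond themselves. Each gene had 1 probe set of its own, so the members are 5 of 22746 probe sets without controls, and 5 of the 69 plastid-encoded genes with a probe set of 1 gene. All 5 passed the filter on low signals, as did 62 of the 69 plastid genes and 11373 probe sets in all.

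RNA came from elongated axillary buds of about 2 mm of 2 auxin-resistant Arabidopsis thaliana lines, both in the Col-0 background and both derived by ethyl methanesulfonate mutagenesis. In axr1-12 the mutation removes function of AXR1, which acts in the pathway that degrades auxin-response repressors, and the axr3-1 line carries a stabilising allele of one such repressor, IAA17. Plants of both lines grew on compost treated with Intercept WG before sowing, at 21 °C with 16 h light and 8 h dark after 3 days in the cold. One array was hybridised per line, with no wild-type array among the samples analysed here, so no difference has a replicate check, a standard error or a p-value. Every difference below is one between these 2 RNA samples. Neither AXR1 nor IAA17 had a probe set listed under 1 gene here, so the labels have no check from the mutated genes, and BRC1, a marker of axillary buds, was not listed either.

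The chloroplast ATP synthase uses the proton gradient across the thylakoid membrane to make ATP. Its catalytic head carries alternating alpha and beta subunits, encoded by atpA and atpB, on a central stalk that includes the epsilon subunit, encoded by atpE. Its membrane part holds a ring of the proton-carrying subunit encoded by atpH, and the subunit encoded by atpF forms part of the outer stalk that holds the head in place. The enzyme is a mosaic, since other subunits, among them the gamma subunit, are encoded in the nucleus. Plastid genes are mostly transcribed as long precursor RNAs that are then cut and trimmed, so RNA levels of neighbouring genes can be set both by shared transcription and by the stability of each processed part. Plastid RNAs as a rule lack the long poly(A) tails of nuclear messengers, whereas the labelling used an oligo(dT) primer.

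All 5 genes were dimmer on the axr1-12 array, as were all 62 plastid genes past the filter and 5417 of the 11373 probe sets. The 2 operons lay apart. The genes atpA, atpF and atpH were 2.71- to 4.56-fold lower in axr1-12, whereas atpB and atpE were 1.43- and 1.49-fold lower. Differences are given as log2 of axr1-12 minus axr3-1 after scaling of axr1-12 to a median ratio of 1, which changed folds by 0.138%. Of the members, 3 of 5 were at least 2-fold lower in axr1-12, where 3.09% of all probe sets past the filter were, and because the genes were selected with this contrast in view nothing is read from that count. The median log2 difference was -1.44 over the 5 members and 0.02 over the 11373 probe sets.

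For atpA, the alpha subunit of the head, the signal was 915 units in axr1-12 and 3760 units in axr3-1. That is a log2 difference of -2.04, or 4.1-fold lower in axr1-12. Its probe set ranked 444th from the top on the axr1-12 array and 61st on the axr3-1 array. For atpF, the outer stalk subunit whose gene holds an intron, the signal was 199 units in axr1-12 and 907 units in axr3-1. The log2 difference of -2.19, or 4.56-fold, was the lowest of the 62 plastid genes past the filter. For atpH, the ring subunit, the signal was 413 units in axr1-12 and 1122 units in axr3-1, a log2 difference of -1.44, or 2.71-fold lower. All 3 genes were therefore dimmer on the axr1-12 array, and atpH by less than its operon neighbours. On the list of 62 plastid genes ordered from the lowest difference, atpA was 4th and atpH 12th.

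For atpB, the catalytic beta subunit, the signal was 5319 units in axr1-12 and 7634 units in axr3-1, a log2 difference of -0.52. For atpE, the epsilon subunit, it was 4400 units in axr1-12 and 6566 units in axr3-1, a log2 difference of -0.58. Both probe sets were among the brightest on either array: atpB ranked 3rd on both, and atpE ranked 10th in axr1-12 and 12th in axr3-1. In the order of the 62 plastid genes atpB was 54th and atpE 50th, near the end with the smallest differences. The coding sequences of atpB and atpE overlap slightly and are known to be transcribed together, so the 2 probe sets can report parts of the same RNA.

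**Figure D1:**
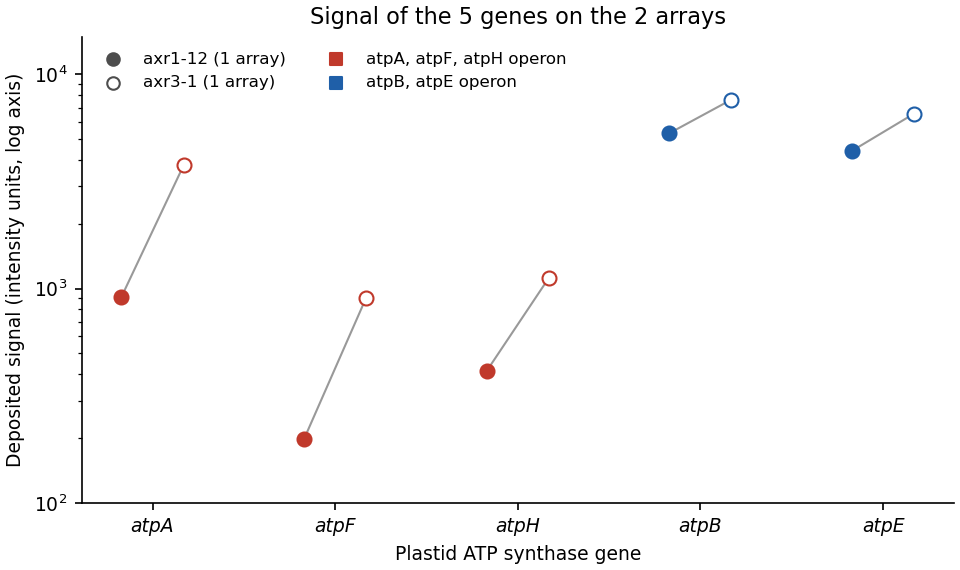
Deposited signal in intensity units on a logarithmic axis for the 5 genes, with axr1-12 as a filled point left of axr3-1 as an open point, 1 array each. The lines of atpA, atpF and atpH are steep, at 915, 199 and 413 units in axr1-12 against 3760, 907 and 1122 units in axr3-1, and those of atpB and atpE are shallow. Heights of different probe sets are not comparable as RNA levels.

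The 2 operons did not overlap in their log2 differences, although relative to plastid genes of similar brightness, given further on, they lay closer together. The mean log2 difference was -1.89 over atpA, atpF and atpH and -0.55 over atpB and atpE, so the first minus the second operon was -1.34, or 2.53-fold lower. The probe sets of atpB and atpE read close to the highest signal of any gene, 5860 units in axr1-12 and 8062 units in axr3-1, and whether their differences are compressed there was not tested, so the fold between the operons is not exact. Dividing either array by any constant leaves this gap as it is. The members of the first operon spanned 0.75 and those of the second 0.06, and the nearest genes of the 2 operons, atpH and atpE, were 0.86 apart. A partial yardstick comes from 32 genes measured by 2 probe sets each: the 2 log2 differences of a gene disagreed by 0.37 (root mean square). The gap of 0.15 between atpA and atpF and that of 0.06 between atpB and atpE lie below this value, whereas atpH lay 0.60 from atpA and 0.75 from atpF. The yardstick covers unequal behaviour of probes and not variation between plants, extractions or hybridisations. In bulk RNA, fewer cells or plastids with these transcripts and less RNA in each cannot be told apart.

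The operons also differed in how the members compared with other probe sets of similar brightness, that is, within 0.5 of the member's mean log2 signal. Of 192 such probe sets for atpA, 1 had an equal or lower log2 difference, which is 0.521%, and it is not named in the table used here. The median of the 192 was -0.20, so atpA minus this median was -1.83. For atpF the count was 2 of 1212, or 0.165%, around a median of 0.01, and atpF minus that was -2.20. For atpH it was 10 of 661, or 1.51%, around a median of -0.04, and atpH minus that was -1.40. Of the 10, the plastid photosystem II genes psbK and psbI and the nuclear genes COR15B, a cold-regulated chloroplast protein gene, EXO, AT2G25510 and AT1G56300 have a name here.

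By contrast, atpB and atpE lay in the middle of the probe sets as bright as they are. For atpB, 11 of 18 such probe sets had an equal or lower difference, or 61.1%, and the 18 ranged from -0.79 to -0.07 with a median of -0.61. For atpE it was 17 of 31, or 54.8%, with a range from -1.13 to 0.19 and a median of -0.60. Thus atpB lay 0.09 and atpE 0.02 above the median of their brightness class. Most of those probe sets were not listed as plastid genes: with plastid genes left out, 17 were left for atpB and 28 for atpE, and the medians were -0.60 and -0.59. Relative to similarly bright probe sets, the mean of the atpA operon was -1.81 and that of the atpB operon 0.05, which differ by -1.86. The smallest and the largest of these classes hold very unequal numbers, so a share of 18 probe sets is coarse.

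**Figure D2:**
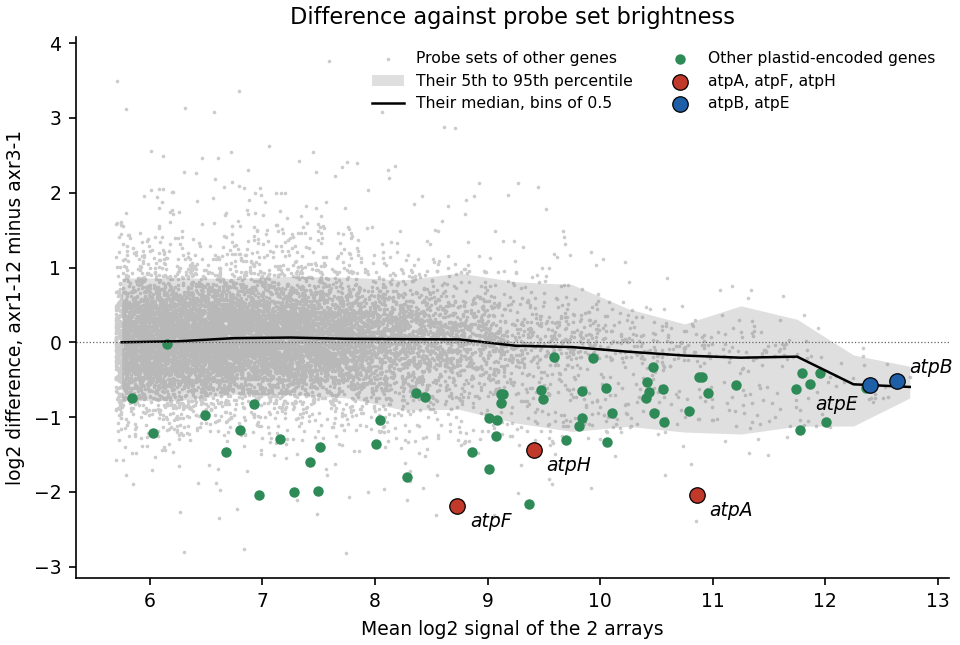
Log2 difference (axr1-12 minus axr3-1) against the mean log2 signal of the 2 arrays, 1 point per probe set past the filter. Grey points are probe sets not listed under 1 plastid gene, those with several genes or none included. Their median (line) and 5th to 95th percentile (band) are given in bins of 0.5. The median line turns down at the bright end, where atpB and atpE lie near it at -0.52 and -0.58, while atpA at -2.04, atpF at -2.19 and atpH at -1.44 lie below the band.

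Signals outside the plastid also differed between the arrays. All 18 probe sets of the hybridisation spikes, bacterial and phage RNAs added to each labelled sample and not bud RNA, were lower on the axr1-12 array, by a median log2 difference of -0.60 and a range from -0.82 to -0.23. Within 0.5 of a member's brightness lay 2 of them for atpB, with a median of -0.34, 3 for atpE (-0.44), 3 for atpA (-0.59), 3 for atpF (-0.59) and 0 for atpH. The array's control for the cytosolic 25S ribosomal RNA read 549 units in axr1-12 and 1101 units in axr3-1. A further 8 genes were taken as mitochondrion-encoded from their symbols and the lack of a listed genome position. Of these, 5 were lower in axr1-12, and the median difference was -0.08, with a range from -0.52 to 0.19. The nuclear photosynthesis genes LHCB4.1, PSAE-1 and PORB had log2 differences of -1.12, -1.11 and -1.50. These 3 were picked with their low values already known and do not stand for nuclear photosynthesis genes as a group. The part of these array-wide differences in the values of the ATP synthase genes was not tested.

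The direction of atpB and atpE depended on how the arrays were scaled. Quantile scaling, which gives equal ranks equal values, left atpB at 0 because its rank was 3 on both arrays, and put atpE at 0.07. A loess fit of the difference on brightness gave -0.06 for atpB and -0.15 for atpE, and scaling to the hybridisation spikes, chosen after the data had been seen, gave 0.08 and 0.03. The genes atpA, atpF and atpH were lower in axr1-12 under all 8 settings, at -1.76, -2.14 and -1.34 after quantile and -1.43, -1.59 and -0.84 after spike scaling. The 2 operons did not overlap in any of the 8 settings, but most of these could not change the gap between them. Dividing an array by a constant, or dropping a floor that no member touched, leaves that gap at -0.86 by construction. The gap is atpH, the nearest of the first operon, minus the lower of atpB and atpE. Under the settings that could change it, it was -1.34 (quantile), -1.22 (loess) and -0.83 (pseudocount).

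**Figure D3:**
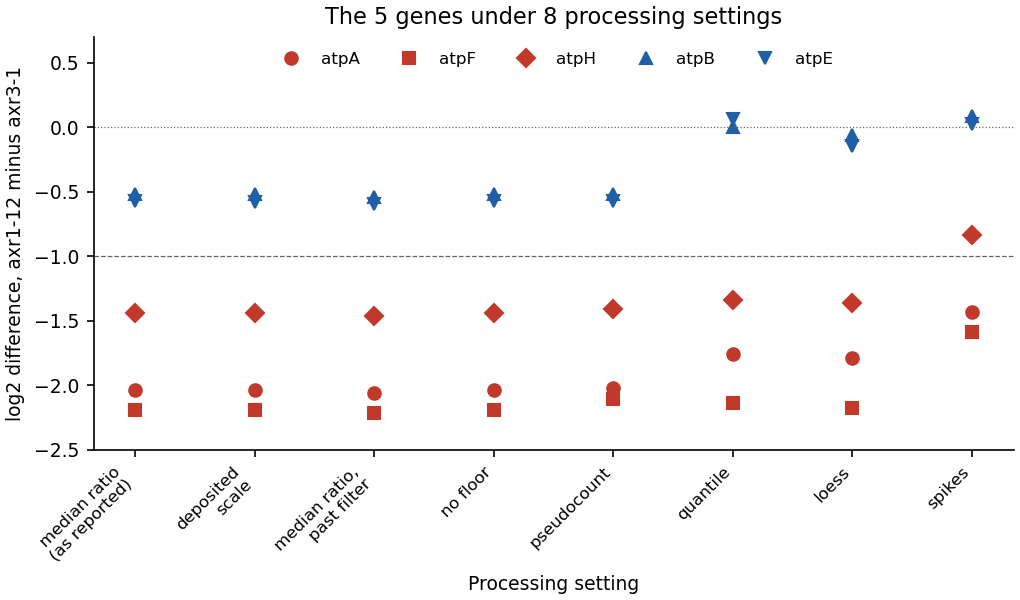
Log2 difference (axr1-12 minus axr3-1) of each gene under 8 processing settings, 1 point per gene and setting, with a dashed line at 2-fold lower. The atpB and atpE points lie between -0.60 and 0.08 and cross 0 under quantile and spike scaling, and atpA, atpF and atpH lie below them in each setting, with atpH above the dashed line after spike scaling.

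Plastid genes as a whole had lower signals in axr1-12: all 62 past the filter, 57 after quantile and 49 after spike scaling. The members were therefore also set beside other plastid genes as bright as they are. For atpA there were 12 such genes, and all had a higher log2 difference. They ranged from -1.06 for ndhD, a subunit of the NDH complex, to -0.33 for psbF, a cytochrome b559 subunit, and included the photosystem II core genes psbA at -0.47 and psbC at -0.57. Their median was -0.64, and atpA minus that was -1.40. For atpF there were 11, from -1.80 for psbB to -0.68 for psbL, all above the -2.19 of atpF, which was -1.18 relative to their median of -1.01. For atpH there were 15, of which psbK at -2.16 and psbI at -1.70 were lower, and atpH minus their median was -0.43.

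Few plastid genes were as bright as the second operon. The 1 gene in the class of atpB was petB, encoding cytochrome b6, with 4240 units in axr1-12 and 6505 units in axr3-1 and a log2 difference of -0.62. The class of atpE held petB, psaB of photosystem I at -1.07 and psbM of photosystem II at -0.41. Relative to plastid genes of similar brightness, the mean of the first minus that of the second operon was -1.07, a value that rests on 1 and 3 genes for atpB and atpE. On this scale the first operon spanned 0.96, whereas its nearest gene to the second, atpH, differed from atpE by -0.47, a smaller distance than that within the operon. Across the other 57 plastid genes, brighter probe sets tended to have smaller differences, with Pearson's r = 0.42 and Spearman's rho = 0.52 between mean log2 signal and log2 difference. This is a description over genes that share 1 genome and the same 2 arrays.

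**Figure D4:**
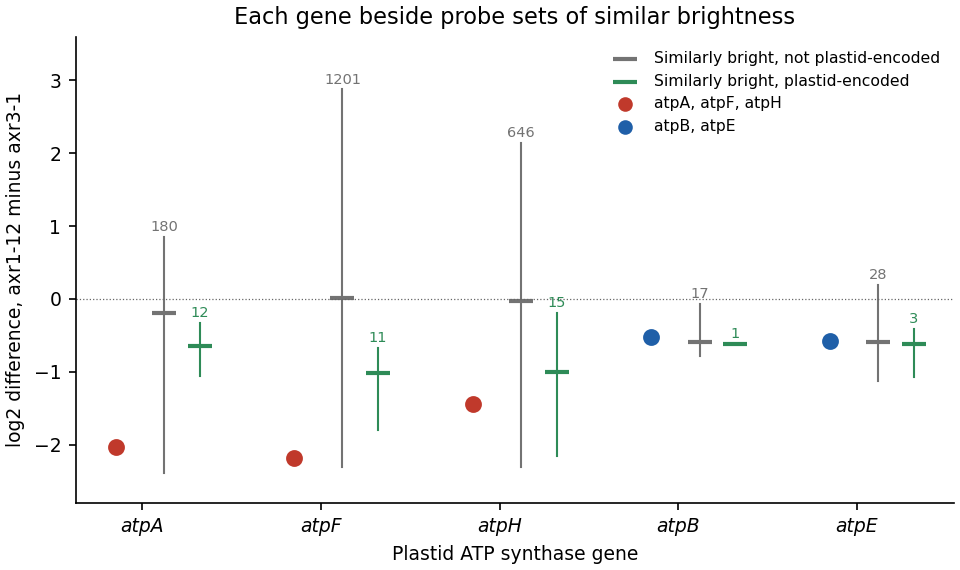
Log2 difference (axr1-12 minus axr3-1) of each gene (point) beside the probe sets within 0.5 of its mean log2 signal. Those are shown as lowest to highest (line), median (bar) and number (printed over the line). Grey stands for probe sets not listed under 1 plastid gene and green for other plastid genes. The points of atpA and atpF lie below the whole green range, atpH lies inside it, and atpB and atpE lie level with both medians.

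Along the plastid genome the first operon lay in a run of low values. Gene order was taken from the TAIR10.1 annotation and serves here for neighbourhood alone. The photosystem II genes psbK and psbI, which precede atpA with tRNA genes in between, had 312 and 287 units in axr1-12 against 1396 and 931 units in axr3-1, log2 differences of -2.16 and -1.70. From psbK to atpH, 5 neighbours past the filter, the mean was -1.90, the second lowest of 58 overlapping runs of 5 genes, whose median was -0.96. The lowest run, at -1.91, began at rps16 and ended at atpF, so it shares 4 of its genes with this one. Members make up 3 of the 5 genes in the run from psbK to atpH, and they were chosen with their low values known, so the place of the run is largely set by that choice.

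On the far side of atpH lies atpI, the membrane subunit through which protons enter the ring and the remaining ATP synthase gene of that operon. It is not among the 5 named members, and it did not pass the filter. It had 11.1 units in axr1-12, below the floor of 15.4 units, and 41.3 units in axr3-1, and a fold against a value under the floor is left out. Beyond it, rps2, a ribosomal protein gene, was 2.01-fold lower in axr1-12, and the RNA polymerase genes rpoC2 and rpoC1 were 2.25- and 2.52-fold lower. The log2 differences of rps2, rpoC2 and rpoC1 were -1.01, -1.17 and -1.33, above the 3 members next to them. The next polymerase gene, rpoB, was too dim to pass the filter, with 22.8 units in axr1-12 and 52.8 units in axr3-1.

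The neighbours of the second operon differed more than atpB and atpE did. On the side of atpE, the NDH genes ndhJ, ndhK and ndhC had log2 differences of -1.98, -1.59 and -0.76, so the differences became smaller with each gene towards atpE. The signal of ndhC was 554 units in axr1-12 and 940 units in axr3-1. On the side of atpB, rbcL, the large subunit of Rubisco, had 377 units in axr1-12 and 778 units in axr3-1, a log2 difference of -1.04. It thus lay 0.52 below atpB. These neighbours were also dimmer than the operon, and dimmer plastid genes tended to have lower values, as given above. Mean log2 signals were 7.49 for ndhJ, 7.42 for ndhK, 9.50 for ndhC and 9.08 for rbcL. Those of atpB and atpE were 12.64 and 12.39. The plastid genes as bright as atpH, with rbcL and ndhC among them, had a median log2 difference of -1.01. The gap of 0.06 between atpE and atpB was the 8th smallest of 61 between neighbouring plastid genes past the filter, whose median was 0.37, and that of 0.15 between atpA and atpF was the 16th. The gap of 0.75 between atpF and atpH was the 54th. Over all 1891 pairs of plastid genes the median gap was 0.48. Of the 11 listed protein-coding neighbours of both operons 9 passed the filter, and 8 of the 9 were at least 2-fold lower in axr1-12, ndhC being the exception, beside 28 of all 62 plastid genes and 3.09% of all probe sets past the filter. After quantile or loess scaling 6 of the 9 were, and after spike scaling 3, psbK, psbI and ndhJ.

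**Figure D5:**
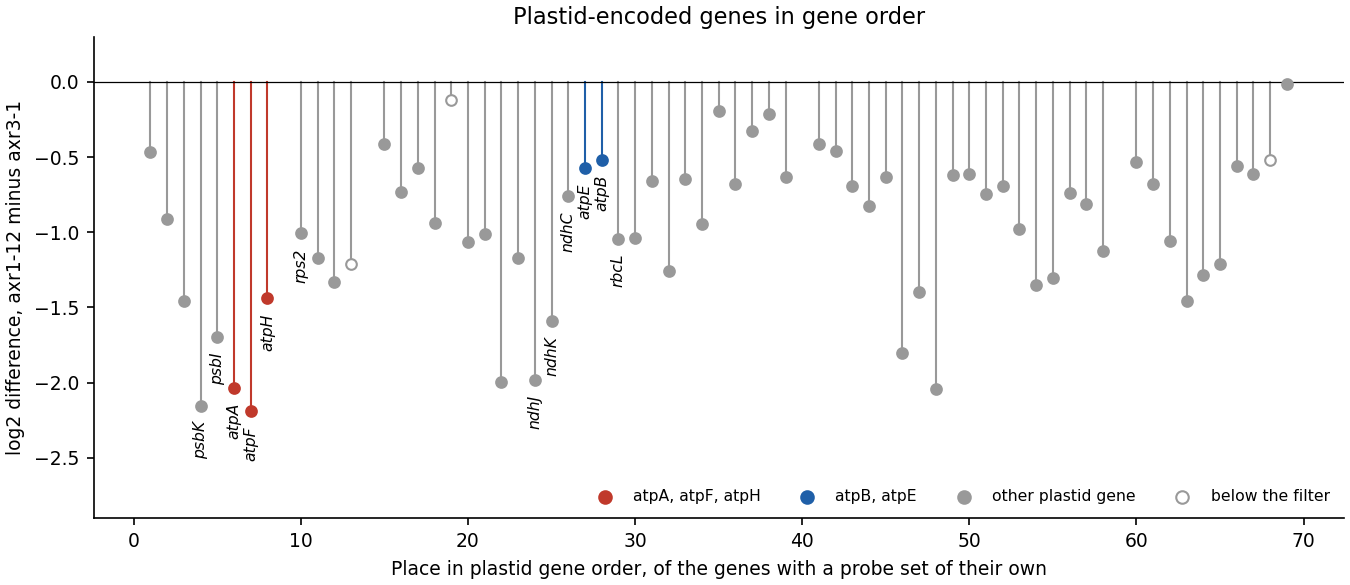
Log2 difference (axr1-12 minus axr3-1) of plastid genes with a probe set of their own, in gene order, with open points for genes below the filter. The genes atpI, petN, petG and ndhF are not drawn because their axr1-12 signals lay under the floor. The red points of the first operon and psbK and psbI beside them reach from -2.19 to -1.44, and the blue points of atpE and atpB follow ndhJ, ndhK and ndhC at -0.58 and -0.52.

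Few nuclear partners of the enzyme had a probe set listed under 1 gene here, and 8730 probe sets had no gene listed. Of 4 nuclear genes for plastid ATP synthase subunits, 2 had a probe set of 1 gene and 1 passed the filter. This was ATPC1 (AT4G04640), the main gamma subunit of the central stalk, with 1191 units in axr1-12 and 2112 units in axr3-1, 1.77-fold lower in axr1-12. Its log2 difference of -0.82 lay between those of the 2 operons. Of 216 similarly bright probe sets, 36 had an equal or lower difference, or 16.7%, around a median of -0.17. The second gamma gene ATPC2 (AT1G15700) was too dim, at 41.7 units in axr1-12 and 46.5 units in axr3-1. No probe set was listed under 1 gene for 5 assembly factors, 18 factors of plastid RNA or transcription, or 7 mitochondrion-encoded ATP synthase names. The same held for 5 nuclear mitochondrial names, and none of these are analysed here. The gene name reference held 1 of 5 assembly factors, 12 of 18 plastid RNA or transcription names and 4 of 5 nuclear mitochondrial names. A gene missing from these lists can still have a probe set on the array.

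Genes with the most alike pair of signals were found by the distance between log2 signals over the 2 arrays, a likeness over 2 values. Nearest to atpA were AT3G11630 at a distance of 0.71, matK, a plastid intron maturase, at 0.80 and ndhD at 0.80. Their log2 differences of -1.20, -0.92 and -1.06 were all above the -2.04 of atpA. Nearest to atpB were petB at 0.40, CCL at 0.77 and psaB at 0.97, with log2 differences of -0.62, -0.44 and -1.07.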

How the data were processed

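Biotin-labelled cRNA from 1 RNA sample per line was hybridised to 1 single-colour array each, and lines were taken from the source names. The authors deposited 1 linear intensity per probe set, made with MAS5 (version not given) per the submitters' processing notes. The trimmed mean was 100.0 on both arrays, so they were already scaled. Detection calls and scanner files were not used here. Of 22810 probe sets 64 were controls. The other 22746 had 1 gene (13513), several (503) or none (8730) in the platform's annotation, and plastid genes were those whose gene identifier lies on the plastid in TAIR10.1. No sequence of probes, promoters or proteins was used.

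The median log2 ratio of the arrays, -0.002, was removed. A floor was set at the pooled 25th percentile, 15.4 units, log2 was taken, and probe sets with a mean log2 signal at or above the median, 51.8 units, passed the filter. Comparison classes held probe sets within 0.5 of a member's mean log2 signal. Python 3.11.15, numpy 2.4.6, pandas 2.3.3, statsmodels 0.14.6 and scipy 1.17.1 were used. Recovery of differences planted in single probe sets was checked on simulated data without a brightness trend. Recovery was required for the main, deposited and no-floor settings only. Spike scaling, the brightness classes and the operon comparison were not simulated. With 1 array per line there is no test, and the number of arrays limits the precision. Members, lists and comparisons were chosen with earlier results of these data known. The rule for naming genes covered the members, and their neighbours and listed partners with a probe set of 1 gene. It also covered the 3 genes nearest in signal to the brightest member of each operon, and LHCB4.1, PSAE-1 and PORB. These last 3 nuclear photosynthesis genes were picked with their low values known and serve as no check. Genes named within brightness classes, and the runs of neighbours, fall outside that rule and were chosen after their values were seen. Alternatives covered scaling, the floor, the filter, the threshold and the brightness class.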

Additional observations from a re-analysis of the deposited data

How the results depend on the processing

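With 1 array per line there were no replicates to leave out. No paired analysis was possible because each line has 1 array. Of 131 alternative values, 106 stayed within the yardstick of 0.37, the counting interval of a share, or 1.5 times a count, and 25 did not. Quantile scaling put atpB at 0, atpE at 0.066, their mean at 0.033 and the gap between the operon means at -1.78. Loess scaling put atpB at -0.059, atpE at -0.15 and their mean at -0.10. Scaling to the hybridisation spikes, added after seeing the data, raised the median over probe sets past the filter to 0.63. It put atpA at -1.43, atpF at -1.59, atpH at -0.84, atpB at 0.084, atpE at 0.028 and the operon means at -1.29 and 0.056, with 50 probe sets at least 2-fold lower and 2211 higher. The main counts were 351 lower and 371 higher in axr1-12. They were 691 and 746 without a filter and 51 and 91 at 3-fold, and 247 were higher with the filter at the 67th percentile, settings that change the number tested or the threshold by construction. With other plastid genes alone as the brightness class, also added, the share at or below the member was 0% for atpA and for atpF. It was 13.3% for atpH and 100% for atpB, over 12, 11, 15 and 1 genes in all. With so few genes no possible share could have stayed within the counting interval for these members, so these moves are fixed by construction and nothing is read from them. Spike scaling adds 1 constant, larger than the yardstick of 0.37, to every log2 difference away from the floor. Its moves of members and operon means therefore follow by construction, and its counts reflect the same shift. The causes of the other moves were not tested. The deposited scale, no floor, a pseudocount of 16, a median ratio over probe sets past the filter, brightness classes of 0.25 or 1, and a class without plastid genes moved none of the values beyond those limits.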
